A study of Rattus norvegicus with 9 samples.

Results

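The genes described here are 9 genes of eosinophils, basophils and mast cells, listed by name with earlier results of these data known: Prg2, Prg3, Epx, Cpa3, Mcpt8, Fcer1a, Ms4a2, Alox5 and Hpgds. All 9 were found among the 14497 genes that the arrays measured with a probe set of a single gene symbol. RNA of 9 preparations of rat liver cells (F344 strain), 3 in each of 3 groups, was hybridised to Affymetrix Rat ST 1.0 arrays, 1 preparation per array. Adult hepatocytes came from rats aged 5 to 6 weeks and were released by collagenase perfusion of the liver. The other groups were fetal liver cells of embryonic day 19, dissociated with collagenase and selected on antibody-coated beads with antibodies to leucine aminopeptidase (LAP), a hepatic cell surface protein, and to OC.2, an antigen of bile duct cells. By titles and cell type labels, 1 fetal group (OC.2+) carried both antigens. The other fetal group (OC.2-) carried LAP but lacked OC.2. The protocol text, however, describes selection for both antigens in either case. Sample descriptions of the OC.2+ group read LAP-OC2+, where the hyphen may be a minus sign or a link. The LAP status of that group is therefore uncertain, and the groups follow titles and cell type labels. Neither fetal group was sorted for or against blood cells, as far as the labels say, and no label names eosinophils, basophils or mast cells.

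Eosinophils, basophils and mast cells are granulocytes of allergic and antiparasitic responses, made from blood progenitors. The fetal liver is a site of blood formation late in gestation, so a digest of it can hold cells of these lineages beside hepatic cells. Eosinophil granules hold the toxic proteins major basic protein (Prg2 and its homologue Prg3) and eosinophil peroxidase (Epx). Mast cell and basophil granules hold proteases such as carboxypeptidase A3 (Cpa3) and mast cell protease 8 (Mcpt8), which in rodents marks basophils. Both cell types bind IgE through a receptor whose alpha chain is Fcer1a and whose beta chain is Ms4a2, and they make leukotrienes through 5-lipoxygenase (Alox5) and prostaglandin D2 through hematopoietic prostaglandin D synthase (Hpgds).

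The sequences before the start sites of members that were at least 4-fold higher in OC.2+ cells than in the OC.2- group are shown first, with that of Cpa3, chosen after its values were seen because it moved the other way. RefSeq promoter sequences of assembly GRCr8 were matched for 6 of the 9 genes: Prg3, Epx, Cpa3, Mcpt8, Fcer1a and Alox5. Each run below holds the 250 bases before the start used in that promoter set, 5′ to 3′ on the gene's strand: Prg3 at chr3:90478904-90479153 (plus strand), Epx at chr10:73175181-73175430 (minus strand), Alox5 at chr4:151251127-151251376 (minus strand), Mcpt8 at chr15:33769399-33769648 (plus strand) and Cpa3 at chr2:104673238-104673487 (minus strand). That start is not always the end of the gene span in the RefSeq gene table. The Prg3 window lies wholly inside its gene span (chr3:90478627-90484760). The Mcpt8 and Cpa3 windows run partly into theirs (chr15:33769575-33772633 and chr2:104641619-104673253). Capitals mark the letters found on either strand for AGATAA and TGATAA (forms of the GATA factor motif), TATAAA (the TATA box), GAGGAAG (a form of the PU.1 motif) and TTGCNNAA (a form of the C/EBP motif).
Prg3: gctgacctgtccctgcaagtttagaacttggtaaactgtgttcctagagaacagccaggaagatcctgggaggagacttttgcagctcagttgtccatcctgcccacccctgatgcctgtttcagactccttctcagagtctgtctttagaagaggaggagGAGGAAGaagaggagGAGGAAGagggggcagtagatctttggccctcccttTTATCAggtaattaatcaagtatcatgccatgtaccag
Epx: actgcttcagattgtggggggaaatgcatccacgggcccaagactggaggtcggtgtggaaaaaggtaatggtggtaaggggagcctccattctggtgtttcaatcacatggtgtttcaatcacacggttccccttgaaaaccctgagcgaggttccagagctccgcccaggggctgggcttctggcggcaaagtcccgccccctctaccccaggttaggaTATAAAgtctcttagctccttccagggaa
Alox5: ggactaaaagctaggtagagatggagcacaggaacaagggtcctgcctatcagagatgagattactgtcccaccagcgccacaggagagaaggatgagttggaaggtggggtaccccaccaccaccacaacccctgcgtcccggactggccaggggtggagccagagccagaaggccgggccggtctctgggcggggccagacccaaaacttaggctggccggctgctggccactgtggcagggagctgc
Mcpt8: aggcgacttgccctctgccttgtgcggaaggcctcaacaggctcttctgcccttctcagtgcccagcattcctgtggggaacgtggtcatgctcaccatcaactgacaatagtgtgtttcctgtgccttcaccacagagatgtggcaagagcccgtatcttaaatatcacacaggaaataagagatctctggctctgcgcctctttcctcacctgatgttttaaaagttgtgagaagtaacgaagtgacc
Cpa3: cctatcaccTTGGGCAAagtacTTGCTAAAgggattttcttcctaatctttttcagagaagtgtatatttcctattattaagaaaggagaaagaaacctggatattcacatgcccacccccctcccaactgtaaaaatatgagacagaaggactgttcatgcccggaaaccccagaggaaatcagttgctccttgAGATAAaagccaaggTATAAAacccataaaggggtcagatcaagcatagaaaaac
In these windows, Epx had TATAAA with its first base 29 bases before the start. Prg3 had TGATAA on the reverse strand at 38 bases and GAGGAAG at 89 and 74 bases before the start. Cpa3 had AGATAA at 55 bases, TATAAA at 40 bases, and TTGCNNAA at 241 bases (reverse strand) and 228 bases before the start. The Mcpt8 and Alox5 windows held none of these letters. Among 33469 RefSeq promoter windows of the same length, 10.3% held AGATAA, 7.97% TGATAA, 12.9% TATAAA, 10.2% GAGGAAG and 9.22% TTGCNNAA, so each motif was found in about 1 window in 10 and a match describes only the letters.

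Levels are given as log2 intensity for arrays 1, 2 and 3 of a group, and differences as differences of mean log2 intensity with the standard error (SE) of a limma fit over all 9 arrays. A gene is called higher or lower at a Benjamini-Hochberg adjusted p under 0.05 over all 14497 genes. The 3 comparisons share samples, so their counts are not independent. In whole preparations such as these, fewer cells of a type and less RNA per cell cannot be told apart. The median log2 level of 187 smell and pheromone receptor genes, used as a description of dim probe sets because no detection call was at hand, was 5 to 5.12 on adult, 5.21 to 5.25 on OC.2- and 5.24 to 5.29 on OC.2+ arrays. The 95th percentiles of these receptor genes were 6.8 to 7.11, 7.18 to 7.25 and 7.28 to 7.43. Prg2, Prg3 and Epx lay above that percentile on all 3 OC.2+ arrays, and no member lay above it on all 3 arrays of adult or OC.2- cells.

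Of the 9 genes, 6 were higher in OC.2+ cells than in the OC.2- group, against 20.3% of all genes called higher, and 1 was lower, against 18.2% called lower. The 6 were the 3 eosinophil granule proteins together with Mcpt8, Ms4a2 and Alox5, each at least 2-fold higher. Cpa3 was lower, and Fcer1a and Hpgds were not called. The median log2 difference of the 9 genes was 2.08, beside 0.04 over all genes. Against adult hepatocytes, 9 of 9 were higher in OC.2+ cells (32% of all genes called higher and 23.4% lower), with a median of 2.19 beside 0.11. In OC.2- cells 5 of 9 were higher than in adult hepatocytes (23.7% of all genes called higher and 20.9% lower), but only Cpa3 and Hpgds by at least 2-fold, with a median of 0.33 beside 0.07.

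**Figure D1:**
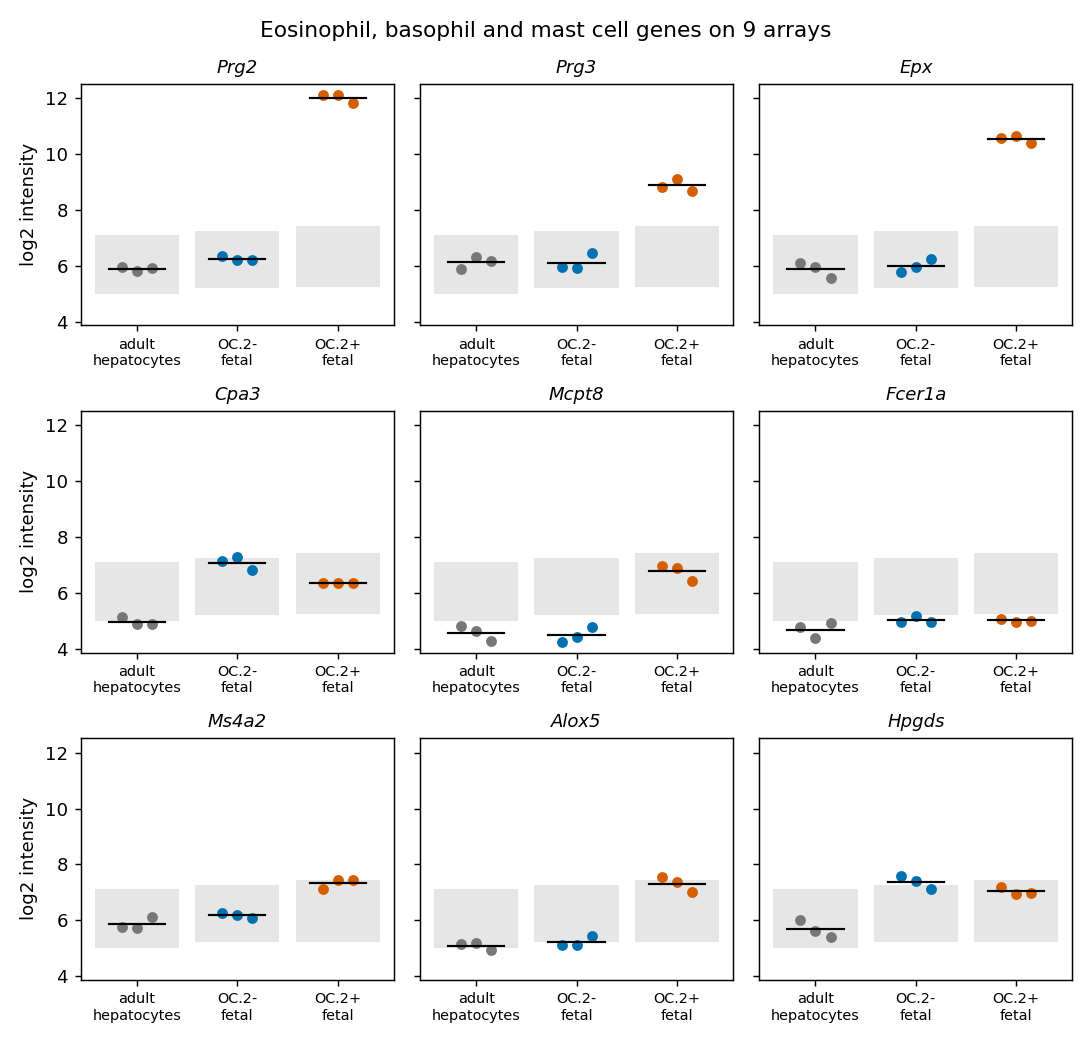
Log2 intensity of each of the 9 genes on each array (points; 3 arrays per group, with a bar at the group mean) in adult hepatocytes, OC.2- and OC.2+ fetal cells. Grey boxes run from the lowest array median to the highest array 95th percentile of 187 smell and pheromone receptor genes in that group. Prg2, Prg3 and Epx stood above the boxes on every OC.2+ array, whereas Cpa3 and Hpgds were raised in both fetal groups.

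Among the eosinophil granule proteins, Prg2, the major basic protein of the granule core, had log2 levels of 5.96, 5.82 and 5.92 in adult hepatocytes, 6.37, 6.21 and 6.21 in OC.2- cells and 12.11, 12.13 and 11.84 in OC.2+ cells. Only the OC.2+ arrays were high, and they lay more than 5 log2 units above every other array. The difference between the fetal groups was 5.76 (SE 0.09), and that between OC.2+ cells and adult hepatocytes was 6.13 (SE 0.09), or 69.9-fold (95% interval 60.7 to 80.4), with a limma adjusted p of 6.14e-14. OC.2- cells were also above adult hepatocytes, by 0.37 (SE 0.09; limma adjusted p = 0.00632), without overlap of the arrays. After quantile normalization this small difference was 0.22, with a limma adjusted p of 0.0766.

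Prg3, a homologue of Prg2 whose gene is its direct neighbour in the RefSeq gene table, had levels of 5.91, 6.34 and 6.19 in adult hepatocytes, 5.98, 5.94 and 6.45 in OC.2- cells and 8.84, 9.13 and 8.70 in OC.2+ cells. The adult and OC.2- arrays overlapped, and all OC.2+ arrays were higher. OC.2+ exceeded OC.2- cells by 2.76 (SE 0.15), a 6.8-fold difference (95% interval 5.39 to 8.57; limma adjusted p = 1.22e-08). OC.2- cells and adult hepatocytes differed by -0.03 (95% interval -0.36 to 0.31).

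Epx, the peroxidase of eosinophil granules, had levels of 6.10, 5.97 and 5.58 in adult hepatocytes, 5.78, 5.96 and 6.24 in OC.2- cells and 10.57, 10.65 and 10.39 in OC.2+ cells. It had the same layout as Prg3, with OC.2+ arrays apart from 2 overlapping groups. The difference between the fetal groups was 4.54 (SE 0.14), or 23.3-fold (95% interval 18.8 to 29; limma adjusted p = 1.34e-10). Between OC.2- cells and adult hepatocytes it was 0.11 (95% interval -0.2 to 0.42). In mean intensity on the linear scale, Epx went from 59.8 in adult and 64.3 in OC.2- to 1489.9 in OC.2+ cells.

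Of the granule proteases, Mcpt8 had log2 levels of 4.82, 4.66 and 4.29 in adult hepatocytes, 4.27, 4.45 and 4.78 in OC.2- cells and 6.99, 6.91 and 6.44 in OC.2+ cells. Adult and OC.2- arrays overlapped, below the receptor gene medians, and all OC.2+ arrays were above both. OC.2+ cells exceeded OC.2- cells by 2.28 (SE 0.17), or 4.85-fold (95% interval 3.75 to 6.28; limma adjusted p = 1.97e-07). Mcpt8 has near relatives on the same chromosome, and 2 more probe sets carry its name jointly with those relatives, so how the signal divides among these relatives is uncertain. The brighter of these, named for Mcpt8, Mcpt8l2 and Mcpt10, had means of 7.06 ± 0.12 (SD, n = 3) in adult, 7.83 in OC.2- and 9.73 ± 0.06 (SD, n = 3) in OC.2+ cells. OC.2+ exceeded OC.2- cells by 1.91 (SE 0.08) on it, with a limma adjusted p over all probe sets of 5.17e-08. The dimmer one, which also names Mcpt9, had means of 4.10, 4.21 and 4.55 in the same order of groups, and its fetal difference of 0.34 (SE 0.20) was not called (limma adjusted p = 0.288).

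Cpa3, the carboxypeptidase of mast cell and basophil granules, was lower where 6 other members were higher. Its levels were 5.16, 4.91 and 4.89 in adult hepatocytes, 7.17, 7.30 and 6.82 in OC.2- cells and 6.37 on each of the 3 OC.2+ arrays. OC.2- arrays were highest and adult arrays lowest, and no groups overlapped. OC.2- cells exceeded adult hepatocytes by 2.11 (SE 0.12), or 4.31-fold (95% interval 3.62 to 5.14; limma adjusted p = 1.11e-08), and OC.2+ cells exceeded them by 1.38 (SE 0.12), or 2.6-fold (limma adjusted p = 3.16e-07). Between the fetal groups Cpa3 was 1.66-fold lower in OC.2+ cells (95% interval 1.39 to 1.98; log2 difference -0.73, SE 0.12; limma adjusted p = 0.000205). The 3 OC.2+ values of Cpa3 were identical as deposited, as were those of 390 of 28826 probe sets in OC.2+ cells (1.35%), 470 in OC.2- cells (1.63%) and 241 in adult hepatocytes (0.836%), so an SD of 0 is no measured absence of spread, and its cause was not tested.

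Of the IgE receptor chains, 1 of 2 was called between the fetal groups. Ms4a2, the beta chain, which amplifies the signal, had levels of 5.76, 5.72 and 6.12 in adult hepatocytes, 6.28, 6.21 and 6.09 in OC.2- cells and 7.14, 7.45 and 7.46 in OC.2+ cells. OC.2+ arrays were apart from the rest, while an adult array reached into the OC.2- range. The fetal difference was 1.16 (SE 0.12), or 2.23-fold (95% interval 1.86 to 2.67; limma adjusted p = 4.29e-06). The OC.2- to adult difference of 0.33 (SE 0.12; limma adjusted p = 0.0407) lost its call under each of 3 other scalings, where it was 0.18 to 0.23. It was also lost without adult array 1 or 2, OC.2- array 1 or 2, or OC.2+ array 2 or 3, where it was 0.26 to 0.33.

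Fcer1a, the alpha chain that binds IgE, was dim in every group. Its levels were 4.78, 4.39 and 4.92 in adult hepatocytes, 4.97, 5.19 and 4.97 in OC.2- cells and 5.09, 4.97 and 5.02 in OC.2+ cells. All 9 values lay below the receptor gene median of their array, the fetal groups overlapped, and the adult arrays were lower than both. The fetal groups differed by -0.02 (95% interval -0.29 to 0.25; limma adjusted p = 0.934), which leaves no direction. Fcer1a was 0.35 above adult hepatocytes in OC.2- cells (limma adjusted p = 0.0359) and 0.33 above them in OC.2+ cells (limma adjusted p = 0.0381), while the 187 receptor genes had median differences of 0.16 and 0.19 in these comparisons. Under 3 other scalings the Fcer1a differences were 0.22 to 0.25 and 0.18 to 0.25, with no call. Leaving out adult array 2 alone brought them to 0.19 and 0.17, and the calls were also lost without OC.2+ array 2 or 3, in OC.2- cells without OC.2- array 1 or 2, and in OC.2+ cells without OC.2+ array 1.

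Of the eicosanoid enzymes, Alox5, which starts leukotriene synthesis, had levels of 5.14, 5.20 and 4.93 in adult hepatocytes, 5.12, 5.12 and 5.44 in OC.2- cells and 7.54, 7.37 and 7.02 in OC.2+ cells. Adult and OC.2- arrays overlapped and OC.2+ arrays were apart. OC.2+ cells exceeded OC.2- cells by 2.08 (SE 0.13), or 4.24-fold (95% interval 3.46 to 5.19; limma adjusted p = 4.8e-08), and OC.2- cells differed from adult hepatocytes by 0.14 (95% interval -0.16 to 0.43).

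Hpgds, which makes prostaglandin D2, had levels of 6.03, 5.62 and 5.40 in adult hepatocytes, 7.59, 7.42 and 7.14 in OC.2- cells and 7.18, 6.96 and 6.98 in OC.2+ cells. Both fetal groups were above every adult array and overlapped each other. OC.2- cells exceeded adult hepatocytes by 1.70 (SE 0.15), or 3.25-fold (95% interval 2.58 to 4.08; limma adjusted p = 1.04e-06), and OC.2+ cells exceeded them 2.56-fold (limma adjusted p = 4.8e-06). The fetal difference of -0.34 (SE 0.15; limma adjusted p = 0.101) was not called. Without adult array 1 the same difference had a limma adjusted p of 0.0409, and without OC.2- array 3 it was -0.46 with a limma adjusted p of 0.0392.

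**Figure D2:**
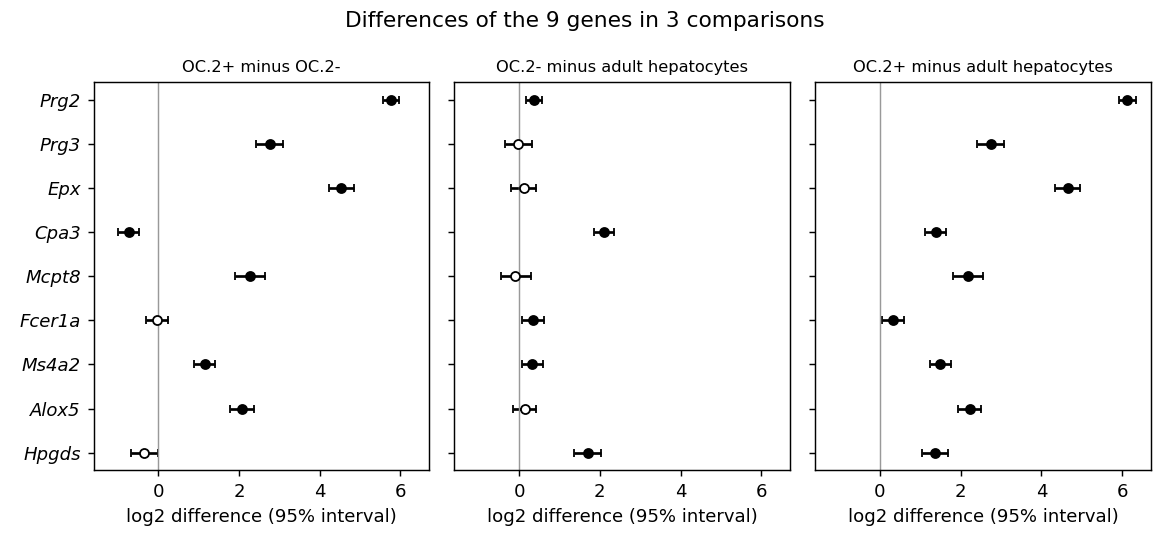
Log2 difference of each of the 9 genes with its 95% interval in the 3 comparisons (limma, 3 arrays per group). Filled points have an adjusted p under 0.05 and open points do not. In OC.2+ against OC.2- cells the points run from 5.76 for Prg2 to -0.73 for Cpa3.

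Ordered by level, Prg3, Epx, Mcpt8 and Alox5 had OC.2+ cells on top and OC.2- cells and adult hepatocytes as neighbours that did not differ beyond their spread. Prg2 and Ms4a2 had the order OC.2+, OC.2-, adult, with small lower steps of 0.37 and 0.33 that other scalings could end. For Cpa3 the order was OC.2-, OC.2+, adult, with every step called. For Hpgds it was OC.2- and OC.2+ without a called step, then adult, and for Fcer1a the fetal groups were level. Over the 9 arrays, the log2 levels of the 6 genes high in OC.2+ cells correlated with each other at r of 0.89 to 1, Cpa3 with Hpgds at 0.97, and Cpa3 or Hpgds with the 6 at 0.13 to 0.47. These correlations describe 3 groups of 3 arrays and carry mainly the group means. In 5 of the 6 genes high in OC.2+ cells, OC.2+ array 3 held the lowest OC.2+ value, the exception being Ms4a2.

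The genes whose levels ran most like each member over the 9 arrays were taken from the whole table, 2 per member by Pearson's r. For Prg2 they were Defa5 (0.9996) and Ngp (0.9994), for Prg3 S100a9 (0.9948) and Agap2 (0.9943), and for Epx Camp (0.9981) and Olfm4 (0.998). For Mcpt8 they were Mcemp1 (0.993) and Alox5 (0.9925), for Alox5 Padi2 (0.9975) and Pglyrp1 (0.9953), and for Ms4a2 Nol9 (0.9967) and Dstyk (0.9941). Of these, Defa5, Ngp, S100a9, Camp and Olfm4 belong to the neutrophil granule list used below. That list does not hold every neutrophil gene, so other neighbours, such as Pglyrp1, can be neutrophil genes too. For Cpa3 they were Slc25a4 (0.9938) and Abcc3 (0.9937), and for Hpgds Per1 (0.9929) and Ost4 (0.9834). Those of Fcer1a were the pheromone and smell receptor genes Vom1r24 (0.9879) and Or5ac23 (0.9834). Such r over 3 groups of 3 arrays carries mainly the pattern of the group means, not the size of a difference. Between the fetal groups, Nol9 and Dstyk differed by 0.39 and 0.53 beside 1.16 for Ms4a2, and Agap2 by 0.73 beside 2.76 for Prg3. Defa5 differed by 5.91 beside 5.76 for Prg2.

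Markers of some other cell types moved along with the members, and their part in the member differences was not tested. Of 20 neutrophil granule genes, 19 were higher in OC.2+ cells than in the OC.2- group and none was lower (limma), with a median log2 difference of 4.09. Their summed intensity per array was 1507 to 1514 in adult hepatocytes, 1610 to 1698 in OC.2- cells and 34695 to 39915 in OC.2+ cells. Of 11 erythroid genes 10 were higher and 1 lower, of 7 megakaryocyte genes 6 were higher, and of 13 lymphocyte genes 3 were higher, a share near the 20.3% of all genes. Erythroid sums were 1103 to 1171, 19421 to 22613 and 40693 to 41170 in the same order, and megakaryocyte sums were 570 to 594, 773 to 838 and 1788 to 2002. Lymphocyte sums were 734 to 777, 809 to 857 and 4258 to 4559. The 3 higher lymphocyte genes included Nkg7, at 40.9-fold (limma adjusted p = 4.12e-12) with a mean intensity of 3622.3 in OC.2+ cells. Of 14 macrophage genes, 1 was higher, 5 were lower and 8 were not called in the fetal comparison, with a median log2 difference of -0.17. Over all genes 20.3% were called higher and 18.2% lower. Macrophage sums were 1968 to 2125, 2795 to 3644 and 2255 to 2675 in the same order, highest in OC.2- cells. All 12 hepatocyte genes were lower in OC.2+ cells than in the OC.2- group, except that 1 was called higher with cyclic loess, with sums of 89098 to 96472, 91606 to 99711 and 40863 to 44622. The sums rest mainly on bright genes such as Alb, and Hnf4a, a hepatocyte transcription factor, lay at 9.67 to 10.02 in OC.2- cells but at 7.17 to 7.29 in OC.2+ cells, below the 95th percentile of the receptor genes on each OC.2+ array.

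Beyond the members, 13 of 19 listed eosinophil genes were measured, and in OC.2+ against OC.2- cells 6 were higher and 2 lower, with a median log2 difference of 0.22 beside 0.04 over all genes. The shares of all genes called were 20.3% higher and 18.2% lower. The 2 lower genes became 1 without any single fetal array, with median centring, with the replicate block and with a pseudocount of 16. The eosinophil list includes genes of secreted ligands (Il5, Ccl11 and Ccl24). It shares Cebpe with the neutrophil granule list and Adgre1 with the macrophage list. Cebpe and Il5 were among the 6 called higher. Il5 had means of 4.71 in adult, 4.74 in OC.2- and 4.96 in OC.2+ cells, below the receptor gene medians in every group. Its call (limma adjusted p = 0.0414) thus rests on a signal not shown to be above background. Clec12a, an inhibitory lectin receptor that neutrophils and monocytes also carry, was 7.45-fold higher (limma adjusted p = 3.52e-10). Il5ra, the interleukin-5 receptor chain that serves eosinophil growth, had levels of 4.81, 4.72 and 4.83 in adult hepatocytes, 5.32, 5.07 and 5.03 in OC.2- cells and 5.92, 6.00 and 5.91 in OC.2+ cells. Its OC.2+ arrays were apart but dim, its OC.2- mean of 5.14 lay below the receptor gene medians, and the difference between the fetal groups was 0.80 (SE 0.09), or 1.74-fold (limma adjusted p = 8e-06). Alox15, the 15-lipoxygenase, was 1.54-fold higher (limma adjusted p = 9.68e-05), and Ccl24, an eosinophil-attracting chemokine, was 1.76-fold lower (limma adjusted p = 0.000158).

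Of 35 listed mast cell and basophil genes 27 were measured, and 9 were higher and 4 lower in OC.2+ cells than in the OC.2- group, with a median log2 difference of 0.07 that was close to the 0.04 over all genes. Of all genes 20.3% were called higher and 18.2% lower. The higher genes included Srgn, the granule proteoglycan serglycin, which other blood cells also store (23.2-fold; limma adjusted p = 1.76e-12). Mcpt9 and Mcpt10, chymase-family relatives of Mcpt8, were 4.79-fold and 3.99-fold higher (limma adjusted p = 9.08e-09 and 6.19e-06), from OC.2- means of 4.82 and 4.39 that lay below the receptor gene medians, so these are folds over a signal not shown to be above background. Mcpt9 had levels of 4.64, 4.52 and 4.64 in adult hepatocytes, 4.95, 4.76 and 4.75 in OC.2- cells and 7.07, 7.36 and 6.8 in OC.2+ cells, with only the OC.2+ arrays high. In the gene order of RefSeq, 2 genes lie between Mcpt8 and Mcpt9 and 5 between Mcpt8 and Mcpt10, and all 3 were highest in OC.2+ cells.

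Some other mast cell proteases were higher in both fetal groups, as Cpa3 was. Because they have close relatives, the signal of each is uncertain in the same way as for Mcpt8. Not all proteases of the list were higher, and some are named here after their values were seen. Against adult hepatocytes, Mcpt3, Tpsg1 and Gzmc were called in neither fetal group, and Mcpt4 and Mcpt9 only in OC.2+ cells. Their OC.2- differences were 0.03, 0.11, 0.04, 0.28 and 0.22 in that order. Mcpt10, Tpsb2, Prss34 and Gzmb were called higher in both. Mcpt1l1, named as a relative of Mcpt1, had levels of 5.61, 5.74 and 5.86 in adult hepatocytes, 8.80, 8.82 and 8.60 in OC.2- cells and 8, 7.99 and 7.82 in OC.2+ cells. No groups overlapped, and OC.2- arrays were highest. It was 8.01-fold higher in OC.2- cells than in adult hepatocytes (limma adjusted p = 4.75e-11) and 1.74-fold lower in OC.2+ cells than in the OC.2- group (limma adjusted p = 1.23e-05). The tryptase gene Tpsab1 had levels of 5.75, 5.71 and 5.79 in adult hepatocytes, 6.88, 7.08 and 6.77 in OC.2- cells and 6.42, 6.43 and 6.29 in OC.2+ cells, again without overlap and with OC.2- arrays highest. Its differences were 1.16 (limma adjusted p = 2.73e-07) from adult hepatocytes to OC.2- cells and -0.53 (limma adjusted p = 0.000335) between the fetal groups. The chymases Mcpt1 and Cma1, named after their values were seen, were 2.64-fold and 2.01-fold higher in OC.2- cells than in adult hepatocytes (limma adjusted p = 1.61e-06 and 3.75e-05). Their adult means of 4.87 and 4.39 lay below the receptor gene medians, so these are folds over a signal not shown to be above background. Cma1 was also near those medians in OC.2- (5.39) and OC.2+ cells (5.27). The fetal differences of Mcpt1 and Cma1, 0.24 and -0.13, were not called (limma adjusted p = 0.191 and 0.532). Without OC.2- array 1 the Mcpt1 difference of the fetal groups was 0.37 and without OC.2- array 3 that of Cma1 was -0.29, both called. Hdc, which makes histamine, was 5.69-fold lower in OC.2+ cells than in the OC.2- group (limma adjusted p = 2.92e-09), with levels in OC.2- cells of 12.91, 12.91 and 12.81.

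**Figure D3:**
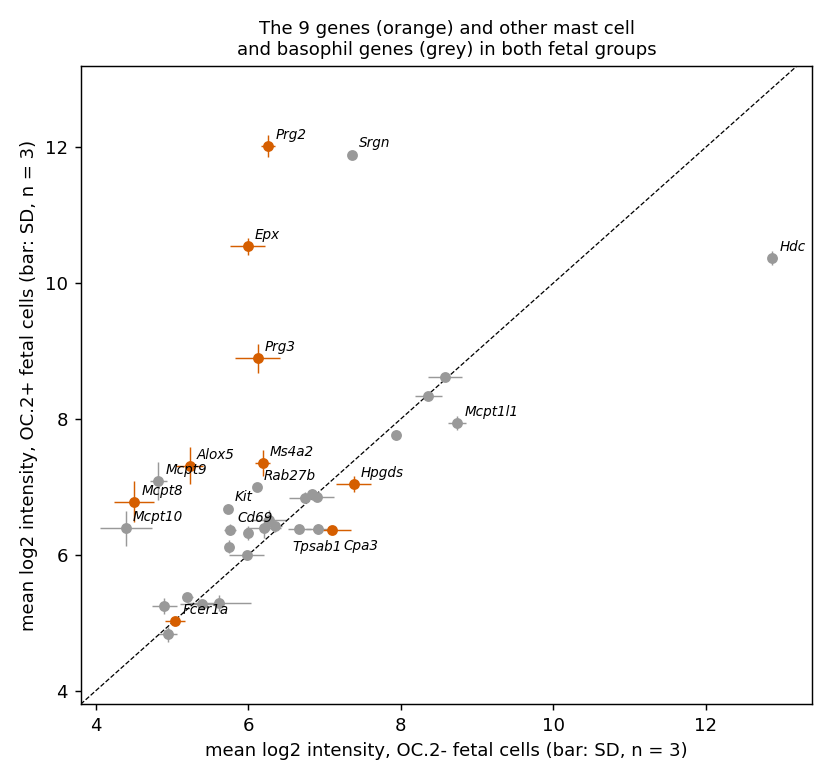
Mean log2 intensity in OC.2- cells (horizontal axis) against OC.2+ cells (vertical axis) for the 9 genes and other mast cell and basophil genes, with bars of 1 SD (n = 3 arrays per group) and a diagonal of equal level. Prg2 and Epx lie far above the diagonal, and Cpa3 and Tpsab1 lie below it.

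In the IgE receptor signalling list, which contains Fcer1a and Ms4a2, 19 of 20 genes were measured and 11 were higher and 2 lower in OC.2+ cells than in the OC.2- group, with a median log2 difference of 0.72. The shares over all genes were 20.3% higher and 18.2% lower. The shared gamma chain Fcer1g, which also serves receptors of macrophages and neutrophils, had levels of 7.75, 7.55 and 7.28 in adult hepatocytes, 9.77, 9.34 and 9.35 in OC.2- cells and 11.46, 11.22 and 11.18 in OC.2+ cells. It rose in both steps, by 1.96 from adult hepatocytes to OC.2- cells (limma adjusted p = 1.29e-07) and by 1.80 from OC.2- to OC.2+ cells (limma adjusted p = 2.8e-07), with no overlap of arrays. The kinase Btk and the adaptor Lcp2, which pass the receptor signal on, were 4.46-fold and 4.12-fold higher in OC.2+ cells than in the OC.2- group (limma adjusted p = 1.57e-08 and 1.55e-09). The mean of Btk in OC.2- cells was 5.05, also below the receptor gene medians. Lower were the inhibitory IgG receptor Fcgr2b, by 3.77-fold (limma adjusted p = 3.91e-07), and the kinase Fyn, by 1.54-fold (limma adjusted p = 3.74e-05).

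In the leukotriene and prostaglandin list, which contains Alox5 and Hpgds, 35 of 36 genes were measured and 13 were higher and 4 lower in OC.2+ cells than in the OC.2- group, with a median log2 difference of 0.20. Among all genes the shares were 20.3% higher and 18.2% lower. The partner of 5-lipoxygenase, Alox5ap, had levels of 6.04, 6.29 and 5.79 in adult hepatocytes, 7.08, 6.86 and 6.99 in OC.2- cells and 10.76, 10.61 and 10.41 in OC.2+ cells. Its OC.2+ arrays were far above the others, by 12.3-fold over OC.2- cells (limma adjusted p = 2.33e-10). Of the next steps, Lta4h, which makes leukotriene B4, was 3.39-fold higher (limma adjusted p = 2.11e-08), and the leukotriene D4 dipeptidase Dpep2 was 2.45-fold higher (limma adjusted p = 2.99e-06). Ltc4s, the leukotriene C4 synthase, named after its values were seen, had a difference of 0.54 (SE 0.25) that was not called (limma adjusted p = 0.122). It was called under quantile normalization, with array weights, in a fit of the fetal groups alone, and without adult array 1 or 3. Against adult hepatocytes Ltc4s was 3.05-fold lower in OC.2- cells (limma adjusted p = 0.000162). Lower in OC.2+ cells than in the OC.2- group were Ggt1 (2.02-fold), Ptgr1 (1.94-fold) and Mgst2 (1.79-fold), an enzyme of glutathione conjugate breakdown, a leukotriene and prostaglandin reductase and a microsomal glutathione transferase (limma adjusted p = 1.72e-07, 5.01e-06 and 5.99e-06).

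**Figure D4:**
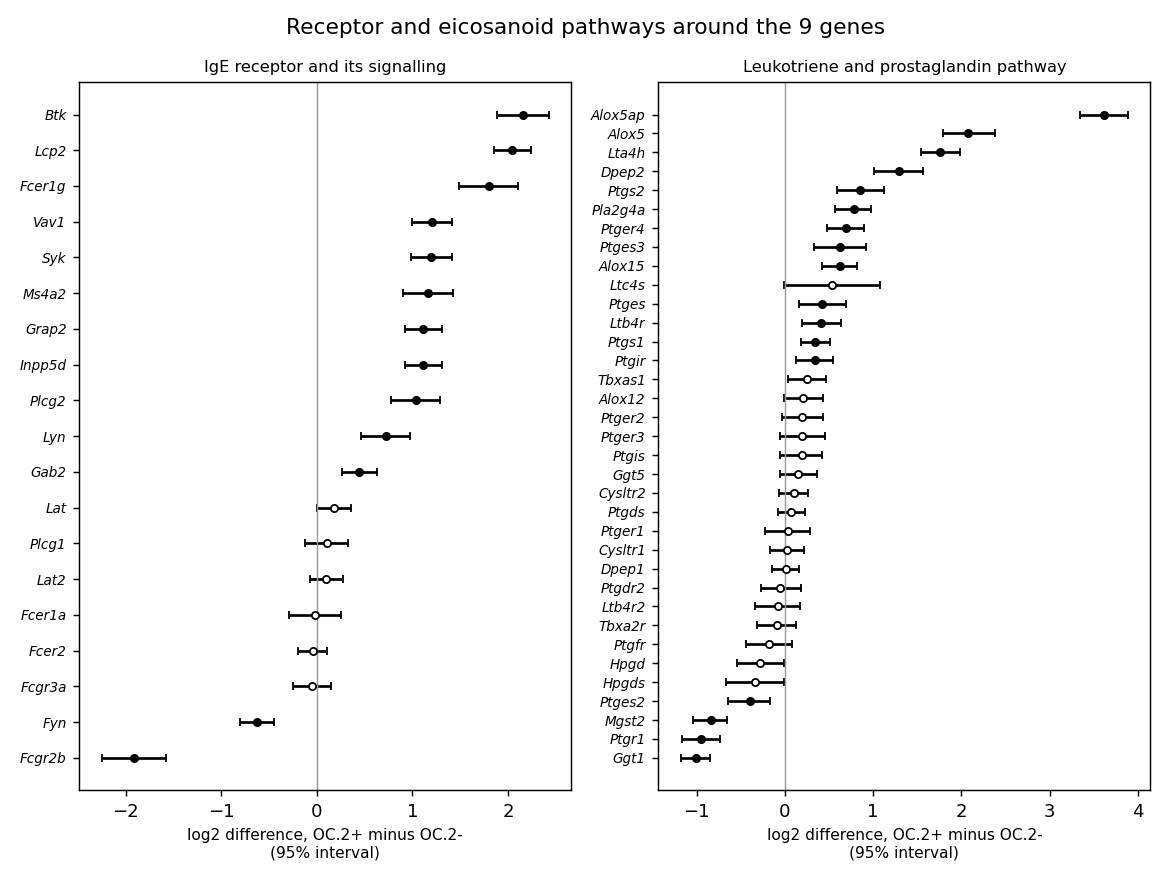
Log2 difference between OC.2+ and OC.2- cells, with its 95% interval, for the 19 measured genes of the IgE receptor list (left) and the 35 of the leukotriene and prostaglandin list (right). Filled points have a limma adjusted p under 0.05 and open points do not. Alox5ap is highest on the right at 3.62, and Fcgr2b is lowest on the left at -1.91.

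Growth factors and receptors that serve these lineages were mixed: 15 of 16 were measured, with 6 higher and 4 lower in the OC.2+ group, with a median log2 difference of 0.07. Over all genes 20.3% were called higher and 18.2% lower between the fetal groups. The stem cell factor receptor Kit was 1.93-fold higher (limma adjusted p = 3.07e-07), and Csf2ra, a chain of the receptor for granulocyte-macrophage growth factor, was 1.54-fold higher (limma adjusted p = 6.64e-05). The ligand of Kit, Kitlg, was 1.87-fold lower (limma adjusted p = 1.7e-05), as were the interleukin-1 family receptor chain Il1rap, 2.79-fold (limma adjusted p = 4.44e-07), and the cytokine gene Il33, 1.66-fold (limma adjusted p = 0.00262). Of 20 lineage transcription factors 19 were measured, and 10 were higher and 6 lower, beside the same shares of all genes, with a median log2 difference of 0.48. Gata1, which eosinophil, mast cell, erythroid and megakaryocyte lineages share, had levels of 5.37, 5.42 and 5.53 in adult hepatocytes, 6.93, 6.98 and 7 in OC.2- cells and 9.06, 9.01 and 9.06 in OC.2+ cells. It separated all 3 groups, with OC.2+ cells 4.21-fold above OC.2- cells (limma adjusted p = 2.74e-10). Ikzf1 and Runx1, regulators of blood lineages, were 5.29-fold and 3.57-fold higher (limma adjusted p = 8.81e-10 and 2.6e-08), whereas Bhlhe40, Cebpa and Xbp1, which liver cells also express, were 5.75-fold, 2.58-fold and 2.48-fold lower (limma adjusted p = 2.05e-06, 8.86e-07 and 6.59e-07).

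Against adult hepatocytes, 5 of these lists had more genes higher than lower in both fetal groups, beside 23.7% of all genes higher and 20.9% lower in OC.2- cells and 32% and 23.4% in OC.2+ cells. The 187 smell and pheromone receptor genes leaned the same way, with 48 higher and 4 lower in OC.2- cells and 68 higher and 3 lower in OC.2+ cells. Of 27 mast cell and basophil genes, 16 were up and 1 down in OC.2- cells (median log2 difference 0.32), and 19 higher and 1 lower in OC.2+ cells (median 0.62). The 1 lower gene in OC.2- cells became 0 (limma) without adult array 1 or OC.2- array 2 or 3. Of 13 eosinophil genes 7 and 9 were higher and none lower (limma; medians 0.26 and 0.43), beside medians over all genes of 0.07 and 0.11. The IgE receptor signalling list had 13 of 19 higher and 0 lower in OC.2- cells (limma; median 0.35) and 16 higher and 1 lower in OC.2+ cells (median 1.21). The leukotriene and prostaglandin list had 15 of 35 higher and 7 lower in OC.2- cells (median 0.17) and 21 higher and 6 lower in OC.2+ cells (median 0.39). The growth factor and receptor list had 7 of 15 higher and 3 lower in each fetal group (medians 0.03 and 0.20). Whether the lists differed in this between the fetal groups was not tested as a list.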

How the data were processed

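RNA of 9 preparations was measured, 1 array each, and the groups follow the sample titles; the labels call the 3 preparations of a group biological replicates. Per the labels' protocols, 150 ng of total RNA entered an Affymetrix whole-transcript amplification. The deposited values are linear intensities, and the submitters' processing notes name Partek 6.6 and RMA, with no role given. The genome build was not given in the sources used here. RMA as usually run makes array distributions alike and shrinks differences of dim genes, yet median intensity was 79.5 to 81.0 on adult and 86.5 to 89.7 on fetal arrays.

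Of 28826 rows, a probe annotation gave 1 gene symbol to 15209, several to 306 and none to 13311. For 494 genes with several rows the row of highest mean was kept, and each member had 1 such row. Log2 intensities were fitted by group with limma 3.58.1 (R 4.3.3, lmFit and eBayes, all 9 arrays, 6 residual degrees of freedom, 2-sided tests). Adjustment was by Benjamini and Hochberg over 14497 genes. The fit was tested on simulated data with normal noise, with 100 genes changed by each size. Over the 3 comparisons it recovered 95 to 97% of changes of 1 log2 unit. Of changes of 0.5 log2 units it recovered 58 to 65%. Far fewer genes were changed there than were called in the data, where 20.3% were higher and 18.2% lower between the fetal groups. The adjusted threshold was therefore stricter in the simulation, and its shares do not measure the recovery in these comparisons. Differences near 0.5 can still go uncalled, as that of Ltc4s between the fetal groups did (0.54). The number of arrays limits the precision, with a median standard error of a log2 difference of 0.095.

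Members and lists were chosen with earlier results of these data known. All members are named. Of each list, up to 3 called genes with the highest and up to 3 with the lowest difference between the fetal groups were to be named, some of which were left out, and genes outside that rule are said to be. Alternatives were 3 other scalings, filters on dim genes, the mean of rows, other variance settings, array weights, the compared groups alone, a replicate block, a stricter threshold, a pseudocount and leaving out each array.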

Additional observations from a re-analysis of the deposited data

How the results depend on the processing

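Between OC.2+ and OC.2- cells, 6 members were called higher under every alternative except the filters on dim genes. The filter at the 25th percentile of gene means tested 6 members (4 called higher, 1 lower), without Mcpt8, Alox5 and Fcer1a. The filter at the median tested only Prg2, Prg3 and Epx (3 called higher, 0 lower). Both filters used means over all 9 arrays. Adult and OC.2- means of Prg2, Prg3 and Epx were 5.88 to 6.26, below the array gene medians of 6.59 to 6.72. These 3 passed the median filter only through their OC.2+ levels, so their OC.2+ calls under it are no further support. The members called lower were 2, Hpgds joining Cpa3, with array weights, with only the groups compared and with the replicate number as a block, and 1 to 2 without each array in turn. In OC.2- cells against adult hepatocytes the 5 members called higher fell to 2 with quantile normalization, to 3 with median centring, cyclic loess, only the groups compared, a threshold of 0.01 or a pseudocount of 16, to 1 with the filter at the median, and were 3 to 5 without each array in turn. In OC.2+ cells against adult hepatocytes the 9 became 6 with the filter at the 25th percentile, 3 with that at the median, and 8 to 9 without each array. Apart from members that a filter left untested, the calls lost against adult hepatocytes were of Fcer1a, Ms4a2 and Prg2, and the cause was not tested. With the replicate block 8 and 4 members were called higher against adult hepatocytes, in OC.2+ and OC.2- cells. Deviations from the group means correlated at -0.23 to 0.11 between same-numbered arrays. With 3 arrays per group, such correlations cannot show whether equal replicate numbers shared a source. Differences that were not called changed sign: Fcer1a between the fetal groups was 0 with median centring and -0.06 to 0.06 without each array, and Epx in OC.2- cells against adult hepatocytes was -0.03 with quantile normalization and -0.04 to 0.22 without each array. In that comparison Mcpt8 was -0.24 to 0.03 and Prg3 was -0.19 to 0.07 without each array. Median centring moved the median of all genes in OC.2- cells against adult hepatocytes from 0.07 to -0.04, and cyclic loess that of OC.2+ cells against adult hepatocytes from 0.11 to 0, so small differences from adult hepatocytes depend on the scaling. Signal over background limits Fcer1a, Cma1 and Il5 in every group. It limits Mcpt8, Alox5, Mcpt9, Mcpt10, Btk and Il5ra outside OC.2+ cells, and Cpa3 and Mcpt1 in adult hepatocytes. In those groups all of these genes lay near or below the receptor gene medians. Signal over background also limits members in OC.2+ cells. Cpa3, Mcpt8, Fcer1a and Hpgds were above the receptor gene 95th percentile on no OC.2+ array, and Ms4a2 and Alox5 on 2. In OC.2- cells Cpa3 was above it on 1 array and Hpgds on 2. The OC.2+ means of Il5ra (5.94) and Mcpt10 (6.39) were below it too.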
